A study of Mus musculus with 6 samples.

Results

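The report concerns 10 genes of transcription factors that direct the megakaryocyte lineage: Fli1, Nfe2, Mef2c, Gfi1b, Gata1, Gata2, Runx1, Tal1, Zfpm1 and Ikzf2. They were chosen by symbol from the 30142 genes that had a probe naming no other gene, and each of the 10 had 1 probe. In the RefSeq annotation of build GRCm38.p6 the genes span Fli1 at chr9:32422204-32543432, Nfe2 at chr15:103248212-103258403, Mef2c at chr13:83504017-83667079, Gfi1b at chr2:28609450-28621982, Gata1 at chrX:7959260-7976663. The others are Gata2 at chr6:88193891-88207032, Runx1 at chr16:92601466-92826074, Tal1 at chr4:115056426-115071755, Zfpm1 at chr8:122281856-122337862 and Ikzf2 at chr1:69531207-69687351. RNA was measured on 6 Clariom D Mouse arrays, 3 of platelets from mouse blood and 3 of bone marrow cells that the labels call megakaryocyte progenitors. Each cell type had a CTC41.5G-EVs array, a CTC41-EVs array and an array of PBS, the control, where EVs is the usual short form of extracellular vesicles. The labels do not spell out the agent names, and the sources used here give no strain, age, dose or number of mice. The mice of each group were pooled before RNA isolation, which left 1 array per group and no replicate. The labels also state that a pool was either used as pelleted or first cleared of leukocytes and red cells with magnetic beads, without saying which pool had which handling.

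Megakaryocytes arise from blood stem cells through progenitors in which a small set of DNA-binding proteins acts together on the same regulatory elements. GATA-2 prevails in early progenitors and GATA-1 in maturing cells, both bind GATA letters, and GATA-1 works through its cofactor FOG-1, the product of Zfpm1. FLI-1 is an ETS factor, RUNX1 a core-binding factor, TAL1 a basic helix-loop-helix factor, and GFI1B a zinc finger repressor. The p45 subunit of NF-E2, encoded by Nfe2, pairs with a small MAF protein and is needed for platelet release. Platelets have no nucleus, and the mRNA they hold is inherited from the megakaryocyte that shed them, so a factor's transcript in platelets is not a measure of ongoing transcription there.

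Of the 10 genes, 7 had promoter windows in the RefSeq table of build GRCm38.p6, 12 windows in all, each of 300 bases from 250 before to 50 after a transcript start. Fli1, Nfe2 and Ikzf2 had none in that table. These windows are shown for Gfi1b and Tal1, the members whose windows held GATA letters, and for Runx1 and Gata1. As deposited, the signals of Runx1 and Gata1, like that of Gata2, differed by less than 1.5-fold between the cell types. The motifs searched on both strands were AGATAA or TGATAA for GATA factors, CCGGAA for ETS factors, TGTGGT for RUNX factors, TGAGTCA for NF-E2 and CANNTG, the E-box, for TAL1 dimers. Capitals mark matches to the GATA, ETS or RUNX letters on either strand, and each sequence runs 5′ to 3′ on the gene's strand. The windows lie at chr2:28621933-28622232 on the minus strand for Gfi1b, at chr4:115056176-115056475 on the plus strand for the upstream start of Tal1, at chr16:92826025-92826324 on the minus strand for the upstream start of Runx1, and at chrX:7967861-7968160 on the minus strand for Gata1.
Gfi1b: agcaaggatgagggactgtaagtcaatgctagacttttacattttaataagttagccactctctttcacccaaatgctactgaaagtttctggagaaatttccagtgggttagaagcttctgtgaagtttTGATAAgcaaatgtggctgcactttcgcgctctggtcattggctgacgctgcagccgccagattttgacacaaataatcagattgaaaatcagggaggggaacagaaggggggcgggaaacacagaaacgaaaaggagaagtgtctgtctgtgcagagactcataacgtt
Tal1: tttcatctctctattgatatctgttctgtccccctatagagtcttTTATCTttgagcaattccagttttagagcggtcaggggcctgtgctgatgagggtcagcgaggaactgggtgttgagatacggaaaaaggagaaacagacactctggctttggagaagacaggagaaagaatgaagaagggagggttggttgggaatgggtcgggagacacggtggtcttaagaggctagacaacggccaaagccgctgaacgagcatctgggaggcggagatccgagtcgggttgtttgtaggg
Runx1: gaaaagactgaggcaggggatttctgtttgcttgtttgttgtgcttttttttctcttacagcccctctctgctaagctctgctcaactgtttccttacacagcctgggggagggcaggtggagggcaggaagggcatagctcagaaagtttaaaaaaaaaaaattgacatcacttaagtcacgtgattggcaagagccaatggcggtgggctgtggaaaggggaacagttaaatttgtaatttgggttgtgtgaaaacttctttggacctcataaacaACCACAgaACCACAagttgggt
Gata1: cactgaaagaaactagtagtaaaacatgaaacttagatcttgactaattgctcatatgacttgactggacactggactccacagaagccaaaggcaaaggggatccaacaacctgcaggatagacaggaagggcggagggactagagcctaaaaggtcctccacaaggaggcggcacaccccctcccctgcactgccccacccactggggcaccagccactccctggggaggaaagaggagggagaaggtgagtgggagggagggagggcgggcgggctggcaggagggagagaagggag

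The GATA letters began at position -120 from the Gfi1b start and at position -205 from the Tal1 start. The upstream Runx1 window held a pair of RUNX matches just after the start, and its other window held an ETS match at position -106. GATA letters were thus in 2 of 12 windows, ETS letters in 1, RUNX letters in 1, NF-E2 letters in 0 and E-boxes in 7. Over all 32851 promoter windows the shares were 18.6%, 14.9%, 16.8%, 5.2% and 72.3%, in the same order. No matches overlapped each other in the members' windows. A match is a run of letters and not a measured binding site.

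The arrays were checked against the labelled cell types. The median log2 signal over all probes lay between 4.0 and 4.05 on the platelet arrays and between 4.38 and 4.45 on the progenitor arrays. A gene was tested if its mean over the 6 arrays reached a floor of 4.23, the 50th percentile of all probes, which left 18875 genes, and a call needed an adjusted p no higher than 0.05 together with a 1.5-fold difference or more. Of 8 tested platelet and megakaryocyte markers, 8 were higher in platelets, and the list's mean log2 signal per array was 10.34 to 10.77 in platelets and 5.54 to 5.71 in progenitors, where Clec1b lay under the floor. Of 6 progenitor markers, Kit and Myb were lower in platelets while Slamf1, Cd9 and Itga2b were higher. Neutrophil granule genes were the reverse of the platelet markers, with 9 of 10 lower in platelets and a list mean of 4.99 to 5.29 in platelets against 6.96 to 7.18 in progenitors. Of 6 tested B cell genes 3 were lower in platelets, and of 6 tested T and NK cell genes 0 were called. Of 9 tested monocyte genes, Lyz2, Ly6c2 and F13a1 were higher in platelets and Ms4a3 was lower. The list mean of basophil, mast cell and eosinophil genes was 5.06 to 5.35 in progenitors and 3.96 to 4.01, under the floor, in platelets. That of B cell genes was 5.24 to 5.31 in progenitors and 4.59 to 4.64 in platelets. T and NK cell genes had 4.79 to 4.85 and 4.45 to 4.50, and monocyte genes 5.09 to 5.16 and 5.60 to 5.72, in the same order. Kit averaged 6.03 in progenitors, and the purity of the pools was not tested. The pools cannot be resolved into cells, so fewer cells of a kind and less RNA per cell cannot be told apart in any value below.

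The first question was which of the factors differed between platelets and progenitors over the 3 treatments. Transcripts of Fli1, Nfe2, Mef2c, Gfi1b, Tal1 and Zfpm1 were higher in platelets, by 1.58-fold to 5.91-fold, and those of Gata1, Gata2 and Runx1 did not pass. Of 9 tested members, 6 were called higher and 0 lower, whereas 16.2% of all tested genes were called higher and 25.7% lower, 41.9% in either direction. The members' median difference was 1.18 on the log2 scale, beside -0.26 over all tested genes. The remaining member, Ikzf2, lay under the floor. On 7 of the 9 tested members every platelet array stood above every progenitor array, which 24.2% of all tested genes did, and the cell types did not overlap in either direction for 78.4%. The test was limma's moderated test of cell type, with treatment as a second additive term and 2 degrees of freedom left for each gene's own spread. The moderated test also borrows from the spread of all tested genes, so SEs, intervals and p-values do not rest on those 2 alone. The sources do not settle the scaling between arrays, and other scalings raise the median difference of all tested genes. The same 6 genes were called under each scaling tried, with Runx1 added when arrays were set to the same median of all probes, and Runx1 and Gata1 when they were set to the same median of olfactory receptor genes.

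**Figure D1:**
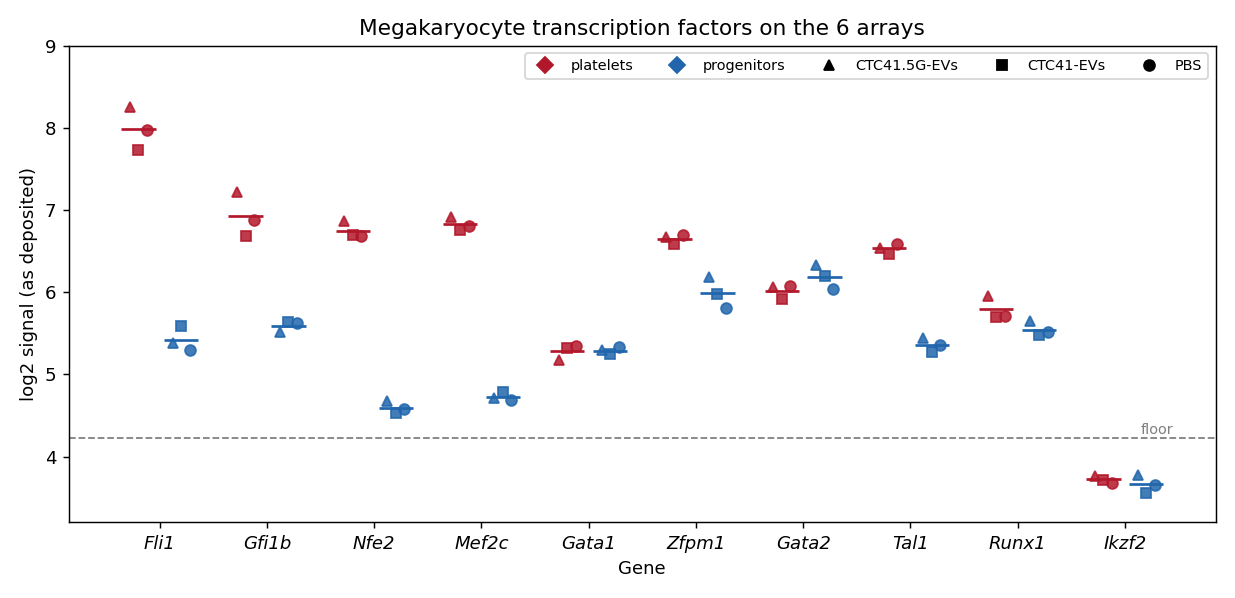
Log2 signal as deposited (vertical axis) of the 10 genes (horizontal axis) on each of the 6 arrays, with platelets in red left of progenitors in blue, marker shapes for the treatments, a line at the mean of 3 arrays and the floor dashed. The platelet and progenitor points of Fli1, Gfi1b, Nfe2, Mef2c, Zfpm1, Tal1 and, narrowly, Runx1 do not overlap, those of Gata1 and Gata2 do, and Ikzf2 lies under the floor of 4.23. Levels of different genes come from different probes and cannot be ranked against each other.

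Among the activators of late megakaryocyte genes, Fli1 showed the largest difference of the members. Its log2 signal was 8.26 with CTC41.5G-EVs, 7.73 with CTC41-EVs and 7.97 with PBS in platelets, against 5.38, 5.59 and 5.30 for the same treatments in progenitors. The lowest platelet array stood 2.15 above the highest progenitor array. Fli1 averaged 7.99 ± 0.26 in platelets and 5.42 ± 0.15 in progenitors (SD over 3 arrays that differ in treatment), a log2 difference of 2.56 with SE 0.17 (5.91-fold, adjusted p = 1.71e-05). Of all tested genes, 97.6% had a lower difference.

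Nfe2, whose product drives the last steps of platelet formation, read 6.87, 6.70 and 6.68 on the CTC41.5G-EVs, CTC41-EVs and PBS arrays of platelets, against 4.68, 4.52 and 4.57 on those of progenitors. The values clustered tightly within each cell type and the groups stood 2.0 apart. The log2 difference was 2.16 with SE 0.09 (4.46-fold, adjusted p = 3.52e-06). Within the 3 treatments taken one by one it was 2.19, 2.17 and 2.11, a spread smaller than its SE.

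Mef2c encodes a MADS-box factor that acts in megakaryocytes and also in B cells and muscle. Its signal in platelets was 6.91 with CTC41.5G-EVs, 6.76 with CTC41-EVs and 6.81 with PBS, and in progenitors 4.71, 4.78 and 4.69. No array of one cell type came near the other. The log2 difference was 2.10 with SE 0.10 (4.29-fold, adjusted p = 5.15e-06). Of 6 tested B cell genes 3 were called lower in platelets, and the mean over all 8 with a probe was 4.59 to 4.64 in platelets against 5.24 to 5.31 in progenitors. The part of B cell RNA in the Mef2c signal was not tested.

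Gfi1b, the repressor needed for both the megakaryocyte and the red cell line, stood at 7.22, 6.69 and 6.88 in platelets in the order CTC41.5G-EVs, CTC41-EVs and PBS, against 5.52, 5.64 and 5.63 in progenitors. The platelet arrays were all higher, and their range of 0.53 exceeded the 0.12 of the progenitor arrays. The log2 difference was 1.33 with SE 0.15 (2.52-fold, adjusted p = 0.000207). It was 1.70 with CTC41.5G-EVs, 1.05 with CTC41-EVs and 1.25 with PBS when each pair of arrays was taken alone.

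Tal1, which binds E-boxes beside GATA sites in a complex with LMO2 and LDB1, gave 6.54, 6.47 and 6.59 in platelets in the order CTC41.5G-EVs, CTC41-EVs and PBS, against 5.45, 5.28 and 5.35 in progenitors. The cell types did not overlap, and the treatments spanned 0.12 in platelets and 0.17 in progenitors. The log2 difference was 1.18 with SE 0.10 (2.26-fold, adjusted p = 6.16e-05).

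Of the GATA factors and their cofactor, Zfpm1 was called and Gata1 and Gata2 were not. Gata1 read 5.17, 5.32 and 5.34 in platelets with CTC41.5G-EVs, CTC41-EVs and PBS, against 5.29, 5.24 and 5.33 in progenitors. The ranges overlapped, and the log2 difference was -0.01 with SE 0.09 (95% interval -0.22 to 0.20, adjusted p = 0.93). This sign depended on scaling, as the difference was 0.29 (adjusted p = 0.0154) after quantile normalization, 0.37 (adjusted p = 0.00694) with equal medians of all probes and 0.71 (adjusted p = 0.000248) with equal medians of olfactory receptor genes, the last of which passed the call. Without either CTC41.5G-EVs array it was 0.05. Even so, the difference of Fli1 exceeded that of Gata1 by 2.57, that of Nfe2 by 2.17, that of Mef2c by 2.11, that of Gfi1b by 1.34 and that of Tal1 by 1.19, amounts that a shift of whole arrays leaves as they are.

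Gata2 read 6.07, 5.92 and 6.07 in platelets with CTC41.5G-EVs, CTC41-EVs and PBS, against 6.33, 6.20 and 6.04 in progenitors. The PBS arrays were level while progenitors stood higher on both EV arrays, so the cell types overlapped. The log2 difference was -0.17 with SE 0.12 (95% interval -0.45 to 0.11, adjusted p = 0.221) and turned to 0.21 and 0.55 with equal medians of all probes and of olfactory receptor genes, neither of which passed the call. Mast cells and basophils also use GATA-2. Of 6 tested genes of basophils, mast cells and eosinophils, 5 were lower in platelets, where Mcpt8, Cpa3 and Prg2 lay under the floor. The mean over all 8 with a probe, Ms4a2 and Fcer1a under the floor in both cell types included, was 3.96 to 4.01 in platelets against 5.06 to 5.35 in progenitors. Their part in the Gata2 signal was not tested.

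Zfpm1, which encodes the GATA partner FOG-1, read 6.67, 6.58 and 6.70 in platelets with CTC41.5G-EVs, CTC41-EVs and PBS, against 6.18, 5.98 and 5.81 in progenitors. Platelets were higher on every array, by 0.40 at the nearest. The log2 difference was 0.66 with SE 0.13 (1.58-fold, adjusted p = 0.00255), close to the 1.5-fold threshold of 0.58. Within treatments it was 0.49, 0.60 and 0.88 in the same order. Without the PBS array of platelets, or without that of progenitors, it was 0.55 and no longer called. The treatment term makes these the same estimate, so they are not separate checks.

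Runx1, mutated in a familial platelet disorder in humans, read 5.96, 5.70 and 5.72 in platelets with CTC41.5G-EVs, CTC41-EVs and PBS, against 5.65, 5.47 and 5.52 in progenitors. The groups did not overlap, but the nearest arrays lay 0.05 apart. The log2 difference of 0.24 with SE 0.09 had an adjusted p of 0.0475 and did not reach 1.5-fold as deposited. With any 1 array left out, its adjusted p lay between 0.091 and 0.166. It was 0.45 (adjusted p = 0.00447) after quantile normalization, also not called, and was called at 0.62 (adjusted p = 0.00166) and 0.96 (adjusted p = 0.000101) with equal medians of all probes and of olfactory receptor genes.

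Ikzf2, or Helios, an Ikaros family factor best known from T cells, had signals of 3.77, 3.72 and 3.68 in platelets with CTC41.5G-EVs, CTC41-EVs and PBS, against 3.77, 3.55 and 3.65 in progenitors. All 6 values lay under the floor of 4.23, so its level cannot be read from these arrays. When all 30142 genes were tested with no floor, its log2 difference was 0.06 with SE 0.10 (adjusted p = 0.582).

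**Figure D2:**
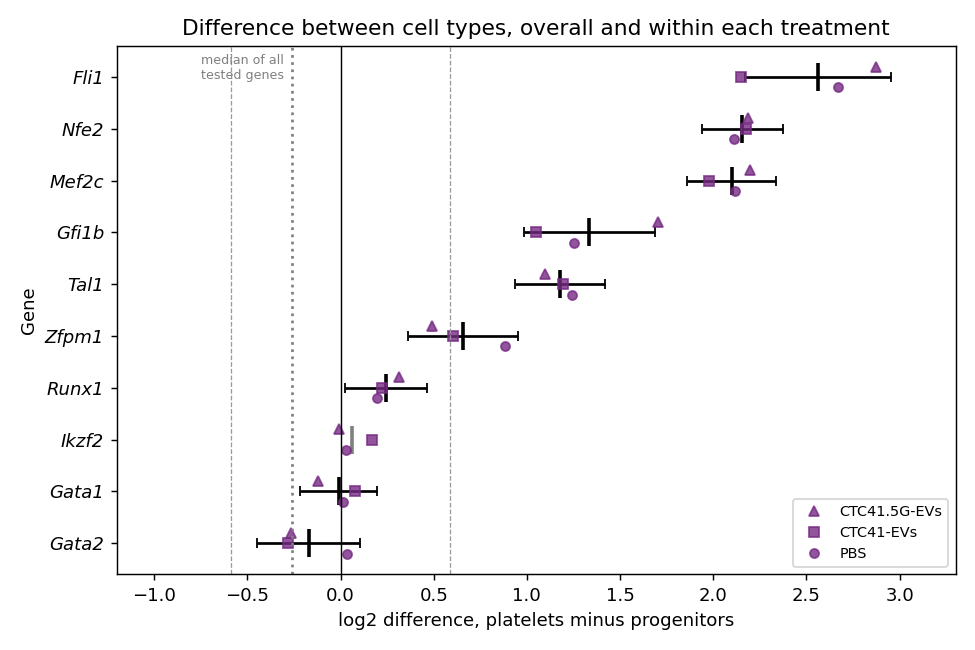
Log2 difference of platelets minus progenitors (horizontal axis) for each gene, as the mean over treatments (vertical tick) with its 95% interval from limma where the gene was tested, and for each treatment alone (markers). Dashed lines mark 1.5-fold and the dotted line the median of all tested genes, -0.26, and the values run from 2.56 for Fli1 to -0.17 for Gata2, where those of Gata1 and Gata2 change sign under other scalings.

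Red cell genes were partly higher in platelets too, and Gata1, Gfi1b, Tal1, Zfpm1 and Nfe2 also act in red cell precursors. Of 6 tested erythroid genes 3 were higher, and the mean over all 8 with a probe was 5.80 to 5.98 in platelets and 4.75 to 4.86 in progenitors. Alas2, the haem synthesis enzyme, averaged 9.85 in platelets and 5.10 in progenitors, Slc4a1, the band 3 anion exchanger, 7.85 and 5.69, and Car2, a carbonic anhydrase, 6.38 and 5.02, in the same order. The tested genes not called were Epor, at 5.69 and 5.91, Ermap, at 5.07 and 5.27, and Rhag, at 4.87 and 4.31. Klf1, the defining red cell transcription factor, lay under the floor in both, at 4.18 in platelets and 4.21 in progenitors, and so did Tfrc, the transferrin receptor. The part of red cell RNA in the members' differences was not tested.

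**Figure D3:**
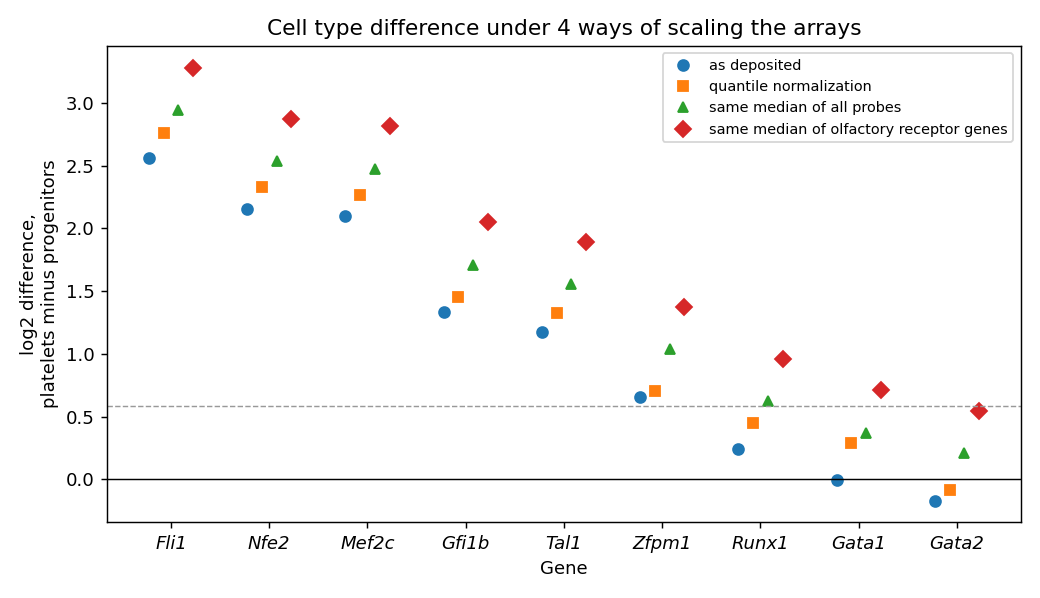
Log2 difference of platelets minus progenitors (vertical axis) for the 9 tested genes (horizontal axis) as deposited and under 3 other scalings of the arrays, with 1.5-fold dashed. All scalings keep Fli1, Nfe2, Mef2c, Gfi1b, Tal1 and Zfpm1 above the dashed line, while Gata1 and Gata2 lie on either side of 0 depending on the scaling.

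Of 19 tested dimer partners and cofactors of the members, 3 were called higher, 0 lower and 16 were not called, with a median of 0.07. The share called higher was close to the 16.2% over all tested genes, of which 25.7% were called lower. Bach1, which competes with NF-E2 for small MAF partners, was 6.62 ± 0.13 in platelets and 4.80 ± 0.02 in progenitors (SD, n = 3 arrays each), a difference of 1.82 with SE 0.10 (adjusted p = 9.28e-06). Gatad2a, a subunit of the NuRD corepressor that FOG-1 recruits, was higher by 0.81 (SE 0.11) and Mafg, a small MAF that pairs with the Nfe2 product, by 0.73 (SE 0.12). Tcf12, an E-protein that dimerises with TAL1, differed by 0.55 (SE 0.09) and missed the fold threshold. The TAL1 complex members Lmo2 and Ldb1 differed by 0.32 (SE 0.08) and 0.06 (SE 0.11), neither of them called. Cbfb, the RUNX1 partner, differed by -0.20 (SE 0.08), also not called. Hdac2 lay under the floor, and Hdac5 and Chd4 had no probe of their own here.

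Among paralogs and other blood transcription factors, 4 of 28 tested were called higher, 1 lower and 23 were not called, with a median of 0.01, again beside 16.2% of all tested genes called higher and 25.7% lower. Elf1, an ETS factor like FLI-1, was 7.99 ± 0.24 in platelets and 5.10 ± 0.28 in progenitors, a difference of 2.89 with SE 0.15 (adjusted p = 6.59e-06). Mef2a, the paralog of Mef2c, differed by 2.03 (SE 0.09; adjusted p = 3.56e-06), while Mef2d differed by 0.24 (SE 0.09) and was not called. Etv6, an ETS repressor, was higher by 0.89 (SE 0.15) and Ikzf5, an Ikaros family gene, by 0.74 (SE 0.09). Myb, a factor of immature progenitors, was the gene called lower, by -0.93 (SE 0.09), and it lay under the floor in platelets at 4.04, so its difference from the floor is -0.75. Erg and Meis1, which act in stem cells and early megakaryocytes, showed differences of -0.09 (SE 0.11) and 0.25 (SE 0.08), neither of them called.

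Of 26 tested genes described as regulated by 1 or more of the members in megakaryocytes, 25 were called higher in platelets and 1 was not called, with a median of 3.94. The list was written with the results for many of these genes already known, so its direction is not independent evidence. The largest differences were those of Ppbp, a granule chemokine precursor, at 6.94 (SE 0.18), Clec1b, the CLEC-2 receptor, at 6.78 or 6.50 when counted from the floor, and Pf4, platelet factor 4, at 6.29 (SE 0.21). Cd226, an adhesion receptor, differed by 6.33, but its progenitor signal lay under the floor, and counted from there its 5.14 falls behind Gng11, a G protein subunit, at 5.65 (SE 0.15). Tubb1, the tubulin of the platelet rim and a described NF-E2 target, differed by 4.59 (SE 0.17), Rab27b, a granule GTPase, by 2.45 (SE 0.14), and Itga2b, the integrin subunit and classical GATA-1 target, by 3.03 (SE 0.17). Myl9, a myosin light chain described as activated by RUNX1 in human cells, differed by 5.43 (SE 0.16). Myh10, a myosin heavy chain that RUNX1 represses as megakaryocytes mature, differed by 0.03 (SE 0.10) and was not called, and Ankrd26, another gene described as repressed by RUNX1, lay under the floor at 3.60 in platelets and 3.55 in progenitors.

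**Figure D4:**
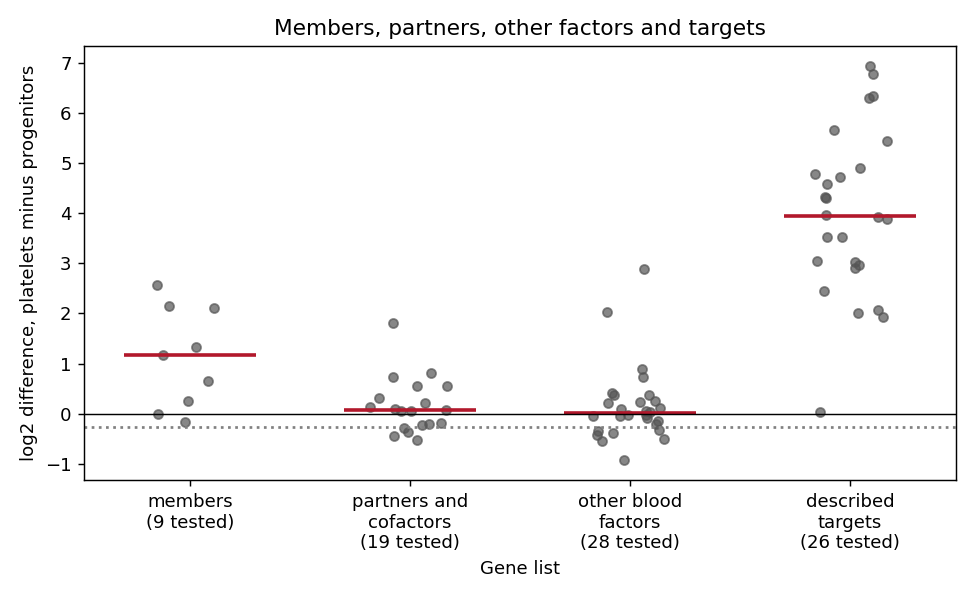
Log2 difference of platelets minus progenitors (vertical axis) for every tested gene of 4 lists (horizontal axis), each point a gene, with the list's median in red and the median of all tested genes, -0.26, dotted. The medians are 1.18 for the members, 0.07 for partners, 0.01 for other blood factors and 3.94 for described targets, all as deposited.

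Some genes followed the members closely over the 6 arrays. Likeness was the root mean square difference of log2 values after centring each gene on its own mean, over all tested genes that are not members. Nearest to Fli1 were Nras, a RAS GTPase, at 0.06 and Tuba4a, an alpha-tubulin, also at 0.06. Nearest to Nfe2 were Vav3, a guanine nucleotide exchange factor, at 0.04 and Jarid2, a Polycomb cofactor, at 0.05. Nearest to Mef2c were Inpp4b, a lipid phosphatase, and Tfdp2, an E2F partner, each at 0.05, and nearest to Gfi1b were Tmem43 and Narf, each at 0.05. With 6 arrays in 2 separate groups, such likeness rests mostly on the difference between the cell types.

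The second question was whether the factors differed with EVs. No member passed for CTC41.5G-EVs against PBS, CTC41-EVs against PBS or CTC41.5G-EVs against CTC41-EVs in limma's test of the shift shared by both cell types. The counts were 0 of 9 in each, beside 0% of all tested genes in each. At an unadjusted p under 0.05 there were 0 members in each, against 6.2% of all tested genes for CTC41.5G-EVs over PBS, 3.06% for CTC41-EVs over PBS and 6.13% for CTC41.5G-EVs over CTC41-EVs. The members' smallest adjusted p was 0.824, 1.0 and 0.852, in that order. The shared shifts ran from -0.10 for Gata1 to 0.19 for Runx1 with CTC41.5G-EVs, and from -0.10 for Tal1 to 0.03 for Zfpm1 with CTC41-EVs, with SEs of 0.11 to 0.20. With CTC41.5G-EVs over PBS the 95% interval was -0.30 to 0.66 for Fli1, -0.31 to 0.55 for Gfi1b and -0.08 to 0.46 for Runx1. With CTC41.5G-EVs over CTC41-EVs it was -0.32 to 0.64 for Fli1 and -0.23 to 0.63 for Gfi1b. A shift past 1.5-fold thus lies within what these arrays allow for Fli1 in both comparisons and for Gfi1b in the latter. Whether the shift differs between the cell types could not be tested with 1 array per group.

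Within a cell type each comparison was 1 array against 1 array, given as values with no test. Over 3 treatment differences in 2 cell types, 0 of 54 differences of tested members reached 1.5-fold, beside 2.8% over all tested genes. By comparison that share of all genes was 2.54% for CTC41.5G-EVs over PBS, 2.87% for CTC41-EVs over PBS and 3.75% for CTC41.5G-EVs over CTC41-EVs in platelets, and 4.25%, 2.08% and 1.32% in progenitors. The 2 member differences past 1.3-fold, a size that 9.97% of the differences of all tested genes reached, were both between the EV arrays of platelets. They were Gfi1b, at 7.22 with CTC41.5G-EVs and 6.69 with CTC41-EVs, a difference of 0.53, and Fli1, at 8.26 and 7.73, a difference of 0.52. In progenitors the same comparison gave -0.12 for Gfi1b and -0.20 for Fli1, the opposite sign.

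In platelets, 8 of the 9 tested members were higher with CTC41.5G-EVs than with CTC41-EVs, Gata1 being the exception, with a median of 0.15, whereas 51.8% of all tested genes were higher. Against PBS, 5 of 9 were higher with CTC41.5G-EVs and 1 of 9 with CTC41-EVs, that 1 being Nfe2, while 50.5% and 48.6% of all tested genes were higher. These comparisons share arrays and are not separate evidence. Of the described targets in platelets, 25 of 26 were higher with CTC41.5G-EVs than with CTC41-EVs (median 0.48), 25 of 26 with CTC41.5G-EVs than with PBS (median 0.34) and 3 of 26 with CTC41-EVs than with PBS (median -0.18). Among them Itgb3, the integrin beta 3 subunit, read 10.15 with CTC41.5G-EVs and 9.40 with CTC41-EVs, and Pf4 read 13.04 with CTC41.5G-EVs and 12.35 with PBS. Some genes outside both lists were also highest with CTC41.5G-EVs in platelets, so this order was not particular to members and targets. Slamf1 read 9.78 with CTC41.5G-EVs, 9.36 with CTC41-EVs and 9.46 with PBS. Cd9 read 10.42, 9.84 and 9.93 and Lyz2 10.02, 9.77 and 9.94, in the same order. Alas2 was nearly level, at 9.85, 9.82 and 9.88. On the same platelet arrays 8 of 10 neutrophil genes were also higher with CTC41.5G-EVs than with CTC41-EVs (median 0.17) and 8 of 10 than with PBS (median 0.15), 3 of them past 1.5-fold against PBS. Ltf, lactoferrin, read 5.26 with CTC41.5G-EVs, 4.66 with CTC41-EVs and 4.64 with PBS. Ngp was higher on both EV arrays, at 5.20, 5.08 and 4.38 in the same order. Camp was lowest with CTC41.5G-EVs, at 5.77, 6.08 and 5.85. Elane and Ctsg of the neutrophil list lay under the floor in platelets. For CTC41.5G-EVs over PBS in platelets, 4 of 6 B cell genes were higher (median 0.14). Of basophil, mast cell and eosinophil genes 3 of 6 were higher (median -0.01), and of erythroid genes 2 of 6 (median -0.07). Of T and NK cell genes 2 of 6 were higher (median -0.04), and of monocyte genes 3 of 9 (median -0.12). The part of RNA of neutrophils or these other cells in the differences of Fli1, Gfi1b and the targets was not tested.

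In progenitors the whole distribution was shifted, as 73.4% of all tested genes were higher with CTC41.5G-EVs than with PBS, with a median of 0.11. Of 9 members 7 were higher in that comparison, with a median of 0.09, and 5 of 9 were higher with CTC41-EVs, where 58.8% of all tested genes were. The largest member differences from PBS were those of Zfpm1, 0.37 with CTC41.5G-EVs and 0.17 with CTC41-EVs, of Gata2, 0.29 and 0.16 in the same order, and of Fli1, 0.08 and 0.28. All of these are smaller than 1.5-fold. Of the described targets in progenitors, 21 of 26 were higher with CTC41.5G-EVs than with PBS (median 0.15) and 15 of 26 with CTC41-EVs (median 0.03), while Gp5, a subunit of the von Willebrand factor receptor complex, read 4.41 with CTC41.5G-EVs and 5.22 with PBS, a difference of -0.81.

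**Figure D5:**
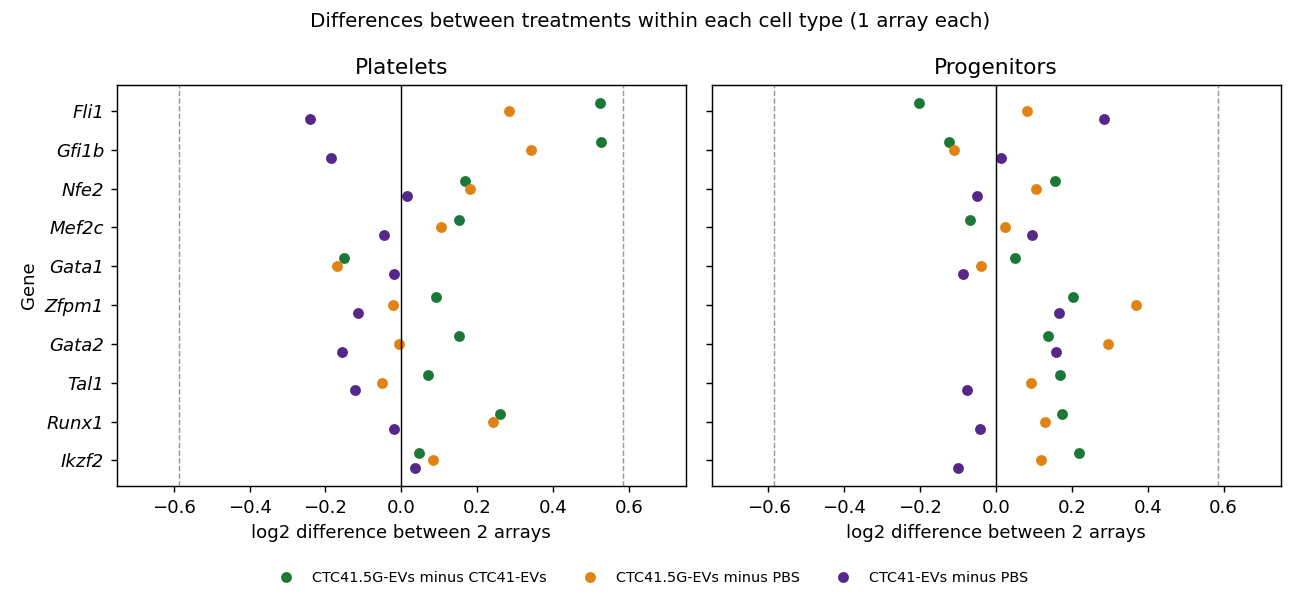
Log2 difference between 2 arrays of the same cell type (horizontal axis) for each of the 10 genes (vertical axis), with platelets left and progenitors right, colours for the 3 treatment comparisons and dashed lines at 1.5-fold. All points lie within the dashed lines, and the points farthest from 0 are Gfi1b at 0.53 and Fli1 at 0.52 for CTC41.5G-EVs over CTC41-EVs in platelets.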

How the data were processed

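The authors' deposited values are log2 probe signals of 6 arrays, summarised with Affymetrix Expression Console 1.4.1.46 per the submitters' processing notes, while the series description names MAS5.0. The sources used here give neither the scaling between arrays nor the genome build. Of 72688 probes, 30604 named 1 gene symbol, 2146 several and 39938 none in the platform annotation, and only the first kind was used. Entrez identifiers matched 22818 of them to RefSeq genes of GRCm38.p6, which updated 827 symbols. Of 30142 genes, 355 had several probes and took that with the highest mean over the arrays.

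Differences between cell types and treatments were fitted with limma 3.58.1 in R 4.3.3, with additive terms, an intensity trend and Benjamini-Hochberg adjustment over all 18875 genes at or over the floor. The fold threshold and the false discovery rate follow the series description, whose exact rank test cannot go below p = 0.1 with 3 arrays against 3. Nothing in the labels says that the pools were prepared separately beyond the groups, so the spread between these 6 arrays may be technical. In the additive fit, each gene's own spread is how far its treatment differences vary between the cell types, as no group had a replicate. The p-values are measured against that spread, moderated by the spread of all tested genes. A treatment shift that truly differs between the cell types therefore counts as noise, and it was not told apart from technical spread. The cell type test was also run on simulated data with known differences, and the EV tests were not. Arrays carry no read depth, and their number limits the precision. Members, gene lists, the rule for named genes (the members, their 2 nearest genes, and from each list the largest differences) and the tests were chosen with earlier results of these data known. Further genes given as examples from the lists were chosen for their described role after their values were seen. Alternatives covered scaling, floor, probe choice, variance trend, the treatment term, the fold threshold and leaving out each array.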

Additional observations from a re-analysis of the deposited data

Results flagged for a closer look

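For Gata2 and Zfpm1 both EV arrays moved below PBS in platelets and above PBS in progenitors. For Gata2 the differences from PBS were -0.01 with CTC41.5G-EVs and -0.16 with CTC41-EVs in platelets, against 0.29 and 0.16 in progenitors, so the mean EV difference in platelets was lower than that in progenitors by a log2 value of -0.31. For Zfpm1 they were -0.02 and -0.11 in platelets, against 0.37 and 0.17 in progenitors, a gap of -0.34. Both EV arrays of a cell type share its PBS array, and with 1 array per group the gap was not tested. Of all tested genes, 21.9% showed such opposite moves, beside 2 of 9 members.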

How the results depend on the processing

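The count of members called between platelets and progenitors was 6 as reported and stayed within 4 to 8 over the other settings. It was 8 of 9 with arrays set to the same median of olfactory receptor genes, 7 of 9 with equal medians of all probes, 5 of 9 at 2-fold, 4 of 5 with the floor at the 90th percentile, and 5 to 6 when any array was left out. The median of all tested genes was -0.26 as deposited and 0.05 after quantile normalization. It was 0.11 with equal medians of all probes and 0.46 with equal medians of olfactory receptor genes. All calls are against 0, and what counts as no difference thus depends on the scaling. Whether the median gene is unchanged between the cell types was not tested. Among all genes the number called lower was 4854 as deposited, 2282, 1911 and 1033 in these settings, and the number called higher 3063, 4141, 4673 and 7615. Signs turned for Gata1 (0.29 after quantile normalization, 0.37 and 0.71 with the equal medians of all probes and of olfactory receptor genes, and -0.0534 to 0.0462 with any array left out, 0.0462 being without either CTC41.5G-EVs array) and for Gata2 (0.21 and 0.55 with the same 2 shifts). A shift of whole arrays to equal medians adds the same amount to the difference of every gene, which here turned small negative differences positive. Why the medians differed between arrays was not tested. Fli1 ranged from 2.41 to 3.28, Nfe2 from 2.14 to 2.87, Mef2c from 2.05 to 2.82, Gfi1b from 1.15 to 2.05 and Tal1 from 1.15 to 1.89. The EV comparisons called 0 members in every setting run. Past 1.3-fold in place of 1.5-fold, 2 member differences within a cell type were counted, and 0 past 2-fold. No paired analysis was possible because the labels carry no replicate numbers, other than the pairing of the cell types by treatment that the treatment term already makes. Without that term the count of members called was also 6.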
